A study of Mus musculus with 32 samples.

Results

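Transcripts of the cytosolic ribosomal protein genes were increased in the collagen hydrogels around tendon core explants compared with core explants from the same kinds of assembloid, and the increase ran across nearly the whole set. The set holds the 86 of 25700 counted genes whose mouse symbols are Rpl or Rps followed by a digit, Rplp0, Rplp1, Rplp2 or Rpsa and which are annotated as protein-coding, without symbols of pseudogenes and without the Rps6k kinases. By their symbols, 52 belong to the large subunit and 34 to the small subunit of the ribosome. Membership rested on symbols alone, so that Rps19bp1, which encodes a binding partner of a ribosomal protein, and Rpl7l1, a relative of Rpl7 known from ribosome assembly, are counted among them.

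The cytosolic ribosome is built from ribosomal RNA and a fixed set of proteins, of which most occur once per ribosome, and the transcripts of these proteins are among the most abundant of any growing cell. Their messenger RNAs start with a tract of pyrimidines (the 5′ terminal oligopyrimidine or TOP tract), through which the mTOR pathway adjusts their translation together. A few mammalian ribosomal proteins have paralogs encoded elsewhere in the genome, such as Rpl22l1 beside Rpl22 and Rps27l beside Rps27, which differ from the parent genes in the tissues that use them. In tendon, production of the collagen-rich matrix by resident fibroblasts depends on this machinery.

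The study assembled tendon cores from mouse tails with hydrogels of collagen-1 to ask how IL-6 from the core acts on cells around it. All 32 samples were bulk RNA-seq libraries from day 7 of culture. Core explants were tail tendon fascicles of young adult B6.129S2-Il6tm1Kopf/J mice of both sexes, either wildtype (WT, Il-6+/+) or labelled as the IL-6 knock-out (KO, Il-6-/-), and each core sample was a pool of explants from a single mouse. WT cores had been surrounded by a cell-free hydrogel, by a hydrogel seeded with fibroblasts (called progenitors in the sample labels) or by one seeded with macrophages, and cores labelled KO by a cell-free or a fibroblast-seeded hydrogel (n = 4 each). The hydrogels themselves were sequenced from the assembloids with fibroblasts, in 6 samples around WT cores and in 6 around cores labelled KO. The seeded fibroblasts came from WT Achilles tendons, had been mixed from several mice and expanded in culture, and shared the hydrogel with whatever cells had left the core, so that a hydrogel sample is a mixture of both. In such bulk samples, fewer cells of a type and less RNA per cell cannot be told apart. The label KO refers to a germline allele of the core donors, while the seeded fibroblasts were WT in every assembloid. By the paper, constructs were held in clamps, with the tension released once the hydrogel had set. The co-culture medium held serum, ascorbic acid and macrophage-colony stimulating factor.

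Library totals lay between 20360289 and 59860703 estimated counts (median 30601010). Il6 was counted in every library, with 5.56 to 36.7 counts per 1000000 counts (CPM) in the hydrogels around cores labelled KO. Hydrogels around WT cores had 4.01 to 9.47 CPM. As the seeded fibroblasts were WT in every assembloid, the hydrogel values cannot speak to the label. All cores labelled KO had 6.84 to 35.1 CPM, and all WT cores 2.08 to 17.1 CPM. Cores beside cell-free hydrogels had no seeded cells around them. They had 6.84, 9.67, 7.04 and 19.98 CPM where labelled KO. The WT ones had 7.59, 2.08, 12.46 and 3.80 CPM, with overlap. Il6 was thus not lower in the cell-free cores labelled KO. The counts pool all exons of the gene and do not show whether the disrupted part was transcribed. Samples with the knock-out label are therefore called "labelled KO" throughout. Summed tendon fibroblast markers took between 2.72% and 7.96% of all counts in every library, summed macrophage markers between 0.204% and 2.55%, and endothelial, Schwann cell, skeletal muscle and red blood cell markers at most 0.00641% each.

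Because these genes are known for the pyrimidines at their transcription start, the bases around the annotated start are shown first. RefSeq (build GRCm38.p6) gave a promoter sequence for 66 of the 86 members by symbol. The following windows reach from 15 bases before to 15 bases after the annotated start, 5′ to 3′ on the strand of the gene, with the longest unbroken run of C and T letters in capitals. Rps6 and Rplp2 stand for the small subunit and the stalk, Rpl27a for the longest run among the genes named here, Rpl34 for the gene with the most uneven levels among the abundant members, and the other 4 for paralogs and their parent genes.
Rps6 (chr4:86857353-86857382, minus strand): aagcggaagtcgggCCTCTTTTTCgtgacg
Rplp2 (chr7:141447636-141447665, plus strand): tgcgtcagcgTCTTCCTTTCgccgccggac
Rpl27a (chr7:109519180-109519209, plus strand): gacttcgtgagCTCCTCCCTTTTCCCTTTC
Rpl34 (chr3:130730323-130730352, minus strand): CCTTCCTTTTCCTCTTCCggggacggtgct
Rps27 (chr3:90213634-90213663, minus strand): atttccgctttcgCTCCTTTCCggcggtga
Rps27l (chr9:66946071-66946100, plus strand): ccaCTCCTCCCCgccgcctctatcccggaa
Rpl22 (chr4:152324421-152324450, plus strand): cgctgCTTCTggaatgttccagctcccact
Rpl22l1 (chr3:28805493-28805522, plus strand): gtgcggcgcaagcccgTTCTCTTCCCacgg

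A run of at least 8 pyrimidines stood in this window in 27 of 66 members (40.9%). Among the 26959 other gene symbols with a RefSeq promoter, 13.8% had one. Each symbol counted by the longest run over its listed starts, and the others were not filtered for protein-coding genes. A run of at least 10 stood in 20 of 66 (30.3%), compared with 6.19%. Among the windows shown, the run of Rps6 crosses the annotated start, that of Rps27l ends before it and that of Rpl22l1 lies behind it, and Rpl22 holds no run beyond 5 letters. In the 300 bases from 250 before to 50 after the start, the letters CCGGAAG, the core of binding sites of ETS factors, were found on either strand in 26 members (39.4%) and in 9.86% of the others. GGGCGG, the core of the SP1 motif, was found in 41 members (62.1%) and in 38.1% of the others, and TATAAA in 7 members (10.6%) and in 15.7% of the others. These counts describe letters in annotated windows and not which start was used in these cells.

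Averaged over all 32 libraries, 68 of the 86 members were at or above 100 CPM, and the median member was at 200 CPM compared with 2.53 CPM for the median of all genes. Rplp0 (718 CPM), which anchors the ribosomal stalk, Rpl4 (623 CPM) and Rpsa (571 CPM), which also serves as a laminin receptor precursor, had the highest mean levels. Per kilobase of annotated transcript, the order was different, with Rps12 (997 CPM per kb), Rplp1 (957 CPM per kb) and Rps24 (862 CPM per kb) at the top. The 3 members below 1 CPM were Rpl10l, a testis paralog of Rpl10 (0.0031 CPM), Rps27rt (0.034 CPM) and Rpl3l, the striated muscle paralog of Rpl3 (0.24 CPM). Among members at or above 100 CPM, the coefficient of variation within groups was 8.85% to 17.3% (median 12.3%).

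As a share of all counts in a library, the 86 members together took 2.21% to 2.51% in the hydrogels around WT cores (median 2.27%) and 2.27% to 3.24% around cores labelled KO (median 2.44%). In the matching cores beside fibroblasts, the shares were 1.37%, 1.5%, 1.52% and 1.54% for WT and 1.38%, 1.49%, 1.45% and 1.54% for labelled KO. Every hydrogel was thus above every core beside fibroblasts. WT cores beside cell-free hydrogels had 1.53%, 1.58%, 1.44% and 1.98%, and those beside macrophages 1.28%, 1.43%, 1.40% and 1.66%. Cell-free cores labelled KO had 2.36%, 1.38%, 1.63% and 1.78%, so that replicate 1 of this group reached the range of the hydrogels and was above every other core.

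**Figure D1:**
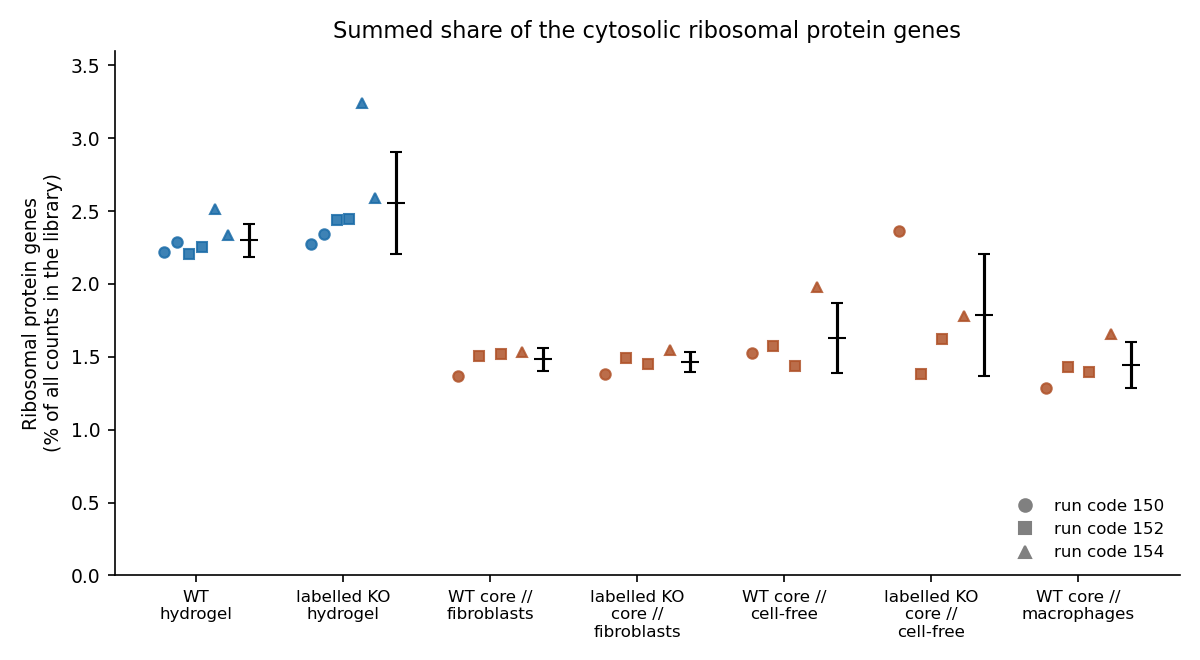
Summed share of the 86 ribosomal protein genes in percent of all counts (vertical axis) for the libraries of each group, with the mean and SD beside the points and symbols for the run code in each sample's title. Hydrogels (blue) lie between 2.21% and 3.24%, and cores (brown) between 1.28% and 2.36%.

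The comparison of the hydrogels with the cores beside fibroblasts asks how the extrinsic compartment differs from the tendon tissue. It sets group against group, as not every hydrogel had a sequenced core. In WT assembloids, transcripts of 82 of the 83 members tested were increased in the hydrogels and none were decreased (edgeR, adjusted p under 0.05), while 33.9% of all 16037 genes tested were increased and 35.4% were decreased. The median log2 fold change of the members was 0.69 (a median fold of 1.61) and that of all genes was 0.00. In assembloids with a core labelled KO, all 83 members tested were increased, while 25.5% of 16084 genes were increased and 30.2% were decreased, and the median was 0.90 (a median fold of 1.87) compared with 0.00 for all genes. Large and small subunit symbols had medians of 0.67 and 0.70 in WT assembloids and of 0.86 and 0.91 in those labelled KO. The ratio of summed large to summed small subunit counts was lower in every hydrogel, at 1.34 to 1.37 around WT cores and 1.33 to 1.37 around cores labelled KO, than in the cores beside fibroblasts, at 1.38 to 1.41 for WT and 1.39 to 1.41 for labelled KO. Hydrogel and core differ in tissue, cells and culture history at once. By the paper, all hydrogel pools but only part of the core pools met its limits of RNA integrity and concentration for sequencing. These differences cannot be told apart. Leaving out each library in turn kept the medians between 0.66 and 0.73 for WT and between 0.85 and 1.02 for labelled KO.

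The stalk proteins Rplp0, Rplp1 and Rplp2 recruit the translation factors that drive elongation. Rplp0 was at 809 CPM in the lowest, 856 CPM in the median and 1037 CPM in the highest hydrogel around WT cores, and at 512, 594, 601 and 579 CPM in the WT cores beside fibroblasts. Around cores labelled KO, the hydrogels reached from 826 over 922 to 1317 CPM, with 566, 543, 536 and 644 CPM in the cores. The groups did not overlap in either genotype, as for 81 of the 83 members tested in each, where 26.3% (WT) and 18.5% (labelled KO) of all genes tested had every hydrogel above every core. The log2 fold change of Rplp0 was 0.66 ± 0.09 (standard error, adjusted p = 3.5e-05, edgeR) in WT assembloids and 0.87 ± 0.14 (adjusted p = 0.00053) in those labelled KO, and an exact permutation test (two-sided, 6 against 4 libraries) gave p = 0.0048 for each, the smallest it can give. Rplp1 rose by 0.80 and 1.02 on the log2 scale, and Rplp2 by 0.88 and 1.03.

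Among the other large subunit genes, Rpl19 was at 363 to 381 CPM in the hydrogels around WT cores (median 372 CPM) and at 192, 212, 222 and 226 CPM in the cores. Its log2 fold change was 0.84 ± 0.07 in WT assembloids (adjusted p = 1.1e-06, edgeR) and 1.09 ± 0.10 in those labelled KO. Rpl4, with the second highest mean level, rose less, from between 481 and 544 CPM in WT cores to between 668 and 815 CPM in the hydrogels, which is a log2 fold change of 0.55 ± 0.08. In assembloids labelled KO, Rpl4 rose by 0.66 ± 0.10. Rpl3, whose protein lies at the peptidyl transferase centre, rose by 0.72 ± 0.07 and 0.98 ± 0.09, Rpl10 by 0.56 and 0.84, Rpl7 by 0.58 and 0.83, and Rpl27a by 0.72 and 0.88. Rpl31, named after its values were seen, was the smallest called change in WT assembloids (0.32 ± 0.07).

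On the small subunit, Rps6, the ribosomal target of the S6 kinases, was at 191 to 213 CPM in the hydrogels around WT cores and at 121, 140, 135 and 154 CPM in the cores, without overlap. Its log2 fold change was 0.58 ± 0.07 in WT assembloids and 0.79 ± 0.08 in those labelled KO. Rpsa rose by 0.62 ± 0.08 and 0.83 ± 0.12. Rps27a, which encodes ubiquitin fused to a ribosomal protein, rose by 0.79 ± 0.06 and 1.07 ± 0.12. Rps25, which takes part in initiation at internal entry sites, rose by 0.75 ± 0.06 and 1.01 ± 0.09, Rps21 by 0.78 ± 0.06 and 1.06 ± 0.12, and Rps15a by 0.73 ± 0.05 and 1.00 ± 0.11. All of these passed the adjusted p in both genotypes (edgeR).

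**Figure D2:**
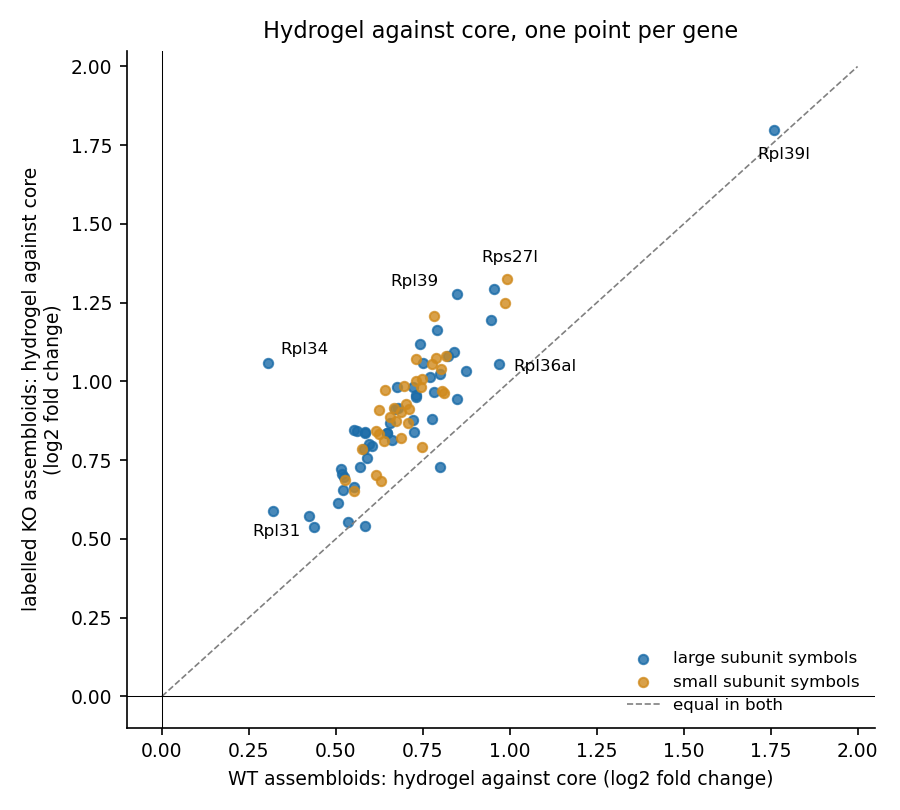
Log2 fold change of hydrogel against core for each tested ribosomal protein gene, in WT assembloids (horizontal axis) and in assembloids labelled KO (vertical axis), with large and small subunit symbols in blue and ochre and a dashed line where both are equal. All points lie above 0 on both axes, Rpl39l lies farthest out (1.76 and 1.80), and Rpl34 lies lowest on the WT axis (0.30).

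Of the paralogs tested, Rps27l, Rpl22l1, Rpl36al and Rpl39l had larger fold changes than their parent genes and Rpl7l1 had smaller ones. Per kilobase, averaged over all libraries, Rpl22l1 was at 50.9 CPM beside 66.5 CPM for Rpl22, and Rps27l at 90.1 CPM beside 580 CPM for Rps27. Rps27l, a relative of Rps27 known as a p53 target, was at 56.6 to 81.3 CPM in hydrogels around WT cores (median 69.3 CPM) and at 33.8, 37.3, 37.6 and 31.6 CPM in the cores. Around cores labelled KO, it was at 60.8 to 83.9 CPM (median 80.1 CPM), compared with 31.1 to 32.8 CPM in the 4 cores. The log2 fold changes were 0.99 ± 0.09 (WT) and 1.33 ± 0.09 (labelled KO), beside 0.64 ± 0.07 and 0.97 ± 0.18 for Rps27. Rpl22l1 was at 33.6 to 42.9 CPM in the WT hydrogels and at 19.5, 22.8, 22.5 and 14.9 CPM in the cores, which is a log2 fold change of 0.95 ± 0.10, compared with 0.58 ± 0.06 for Rpl22. In assembloids labelled KO, the values were 1.29 ± 0.11 for Rpl22l1 and 0.84 ± 0.13 for Rpl22. Rpl36al rose by 0.97 ± 0.07 and 1.05 ± 0.10, beside 0.68 ± 0.06 and 0.92 ± 0.11 for Rpl36a.

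Set against its parent per length of transcript, Rpl22l1 made up 45.3% to 50.3% of the pair in the hydrogels around WT cores and 33.5% to 44.3% in the WT cores beside fibroblasts. The mean difference was 6.42 percentage points (exact permutation test, two-sided, p = 0.0048, adjusted p = 0.127 over the 40 paralog comparisons made). For Rps27l, the share was 13.3% to 17.9% in hydrogels and 11.4% to 13.1% in cores (2.92 points, exact p = 0.0143, adjusted p = 0.143), and for Rpl36al 11.8% to 13.9% and 10.3% to 11.2% (2.13 points, exact p = 0.0095, adjusted p = 0.127). These 3 shares did not overlap between the groups in WT assembloids and did overlap in those labelled KO, and none passed the correction. Rpl7l1 made up 10.0% of its pair in WT hydrogels and 10.4% in WT cores on average, with overlap, and rose by 0.52 in WT assembloids and by 0.70 in those labelled KO on the log2 scale. Reads shared between a paralog and its parent are split by the authors' pseudoalignment, so these shares carry that uncertainty. They also rest on median annotated transcript lengths, such as 538.5 nt for Rpl22l1 and 2048 nt for Rpl22. Which transcripts were used in these cells was not examined.

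Rpl39l, a paralog of Rpl39 best known from male germ cells, was the least even of the tested members. It was at 5.70, 4.22, 4.39, 2.17, 1.52 and 10.3 CPM in the hydrogels around WT cores, and at 1.54, 1.31, 0.764 and 2.09 CPM in the WT cores. Around cores labelled KO, the hydrogels had 0.816, 2.35, 2.03, 6.89, 1.91 and 1.63 CPM and the cores 0.920, 0.227, 1.69 and 0.269 CPM. Most hydrogels were above the cores, but the groups overlapped in both genotypes. The log2 fold change was 1.76 ± 0.51 in WT assembloids (adjusted p = 0.0084, edgeR) and 1.80 ± 0.67 in those labelled KO (adjusted p = 0.0398). The second call was lost without replicate 1, 2 or 4 of the cores labelled KO or replicate 2, 3 or 4 of the hydrogels around them, with log2 fold changes between 1.24 and 1.89 and adjusted p between 0.052 and 0.097 (edgeR). Without replicate 3 of the cores labelled KO, the value was 2.44. The call was also lost with library totals alone (1.70, adjusted p = 0.0562, edgeR).

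Rpl34, singled out after its values were seen, was the member not called in WT assembloids. It was at 68.2, 114, 67.2, 99.4, 80.0 and 68.6 CPM in the hydrogels and at 85.2, 53.6, 93.5 and 43.9 CPM in the WT cores beside fibroblasts, with overlap. The log2 fold change was 0.30 ± 0.23 (adjusted p = 0.264, edgeR). The run and N codes in the sample titles pair hydrogels with cores, and with them as a block it was 0.41 ± 0.08 (adjusted p = 0.00104, edgeR). In each of the WT core groups, replicates 1 and 3 were above replicates 2 and 4. Replicates 1 and 3 had 98.1 and 80.7 CPM in WT cores beside cell-free hydrogels, 85.2 and 93.5 CPM beside fibroblasts and 66.0 and 79.2 CPM beside macrophages, while replicates 2 and 4 had 50.8 and 65.9 CPM, 53.6 and 43.9 CPM, and 49.9 and 48.0 CPM. In the cores labelled KO, replicate 4 was at 12.8 CPM beside the cell-free hydrogel and at 15.1 CPM beside fibroblasts, where the other 6 libraries were at 44.7 to 95.9 CPM. The hydrogel with the same codes, replicate 6 around cores labelled KO, was the lowest of all hydrogels at 56.0 CPM. In assembloids labelled KO, Rpl34 rose by 1.06 ± 0.38 (adjusted p = 0.034, edgeR), and this call was lost without replicate 1 or 2 of the cores (adjusted p = 0.0651 and 0.0675), without replicate 4 of the hydrogels (0.0624) and with library totals alone (0.0644). Its coefficient of variation within groups was 37.5%, compared with 18.7% for Rpl22l1, the next among the members at or above 10 CPM, and the sources used here do not state what the codes stand for.

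**Figure D3:**
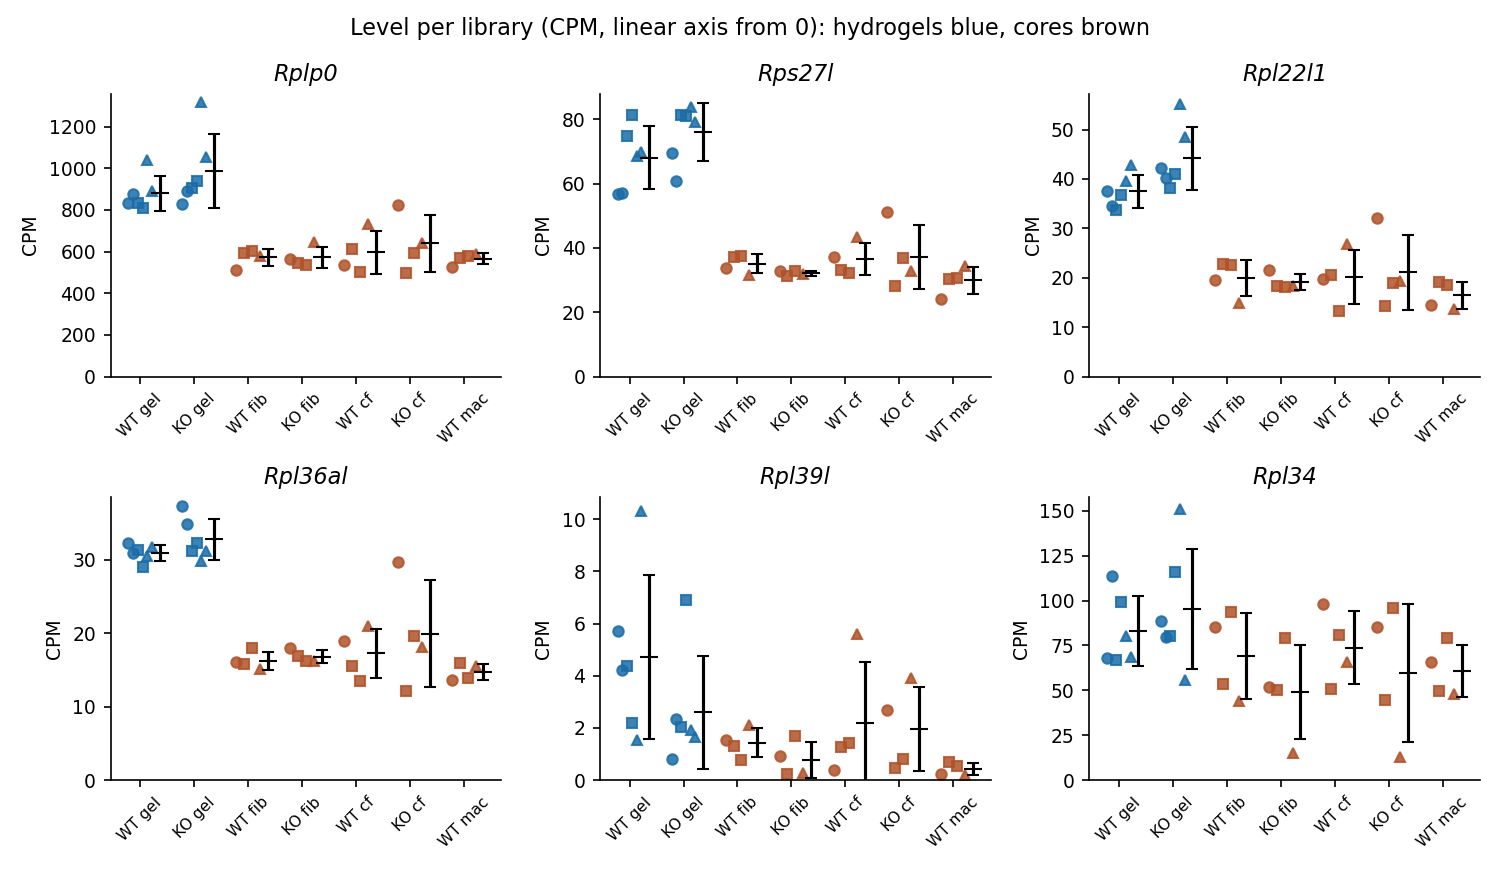
Level in CPM (vertical axes, linear from 0) of Rplp0, Rps27l, Rpl22l1, Rpl36al, Rpl39l and Rpl34 in each library, with mean and SD beside the points, hydrogels in blue and cores in brown, and symbols for run codes 150 (circle), 152 (square) and 154 (triangle); KO stands for labelled KO, fib for beside fibroblasts, cf for beside cell-free hydrogels and mac for beside macrophages. The first 4 genes separate hydrogels from cores beside fibroblasts, Rpl39l overlaps, and Rpl34 shows 2 cores labelled KO at 12.8 and 15.1 CPM.

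Genes that work with the ribosomal proteins were examined by lists. Of all genes tested, 33.9% rose and 35.4% fell in WT assembloids, and 25.5% rose and 30.2% fell in those labelled KO. Fau and Rack1, which encode ribosome components outside the naming rule, rose by 0.80 ± 0.08 and 0.74 ± 0.07 in WT assembloids and by 0.91 and 0.95 in those labelled KO. Of 20 translation factors and other genes whose messenger RNAs start with a TOP tract, 20 rose in WT assembloids (median 0.54) and 18 in those labelled KO (median 0.68), among them the initiation factor gene Eif3f (0.91 and 0.90), the elongation factor gene Eef1d (0.61 and 0.72) and Btf3, of the nascent polypeptide-associated complex (0.68 and 0.87). Eif3a (0.16 ± 0.10) and Pabpc1 (0.19 ± 0.14) did not pass the test in the latter. Of 40 ribosome biogenesis genes, 31 rose (median 0.25) and 26 rose (median 0.28), respectively, and none fell. Of 78 genes of the mitochondrial ribosome, 65 rose and 4 fell in WT assembloids (median 0.43), and 63 rose and 2 fell in those labelled KO (median 0.57). Transcripts encoded by the mitochondrial genome moved the other way, with 7 of 9 decreased (median -0.52) and 5 of 9 decreased (median -0.60).

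Of 15 regulators of ribosomal protein synthesis, 7 rose and 5 fell in WT assembloids, and 5 rose and 6 fell in those labelled KO, which is near the shares over all genes (33.9% higher and 35.4% lower in WT assembloids, 25.5% and 30.2% in those labelled KO). Eif4ebp1, a repressor of cap-dependent initiation under mTOR (0.62 ± 0.06 and 0.68 ± 0.08), and Ddit4 (1.25 ± 0.18 and 0.81 ± 0.29) and Sesn2 (1.14 ± 0.16 and 1.26 ± 0.19), both inhibitors of mTOR complex 1, were increased in the hydrogels. Tsc1, which restrains mTOR (-0.53 ± 0.06 and -0.61 ± 0.06), and the S6 kinase gene Rps6kb2 (-0.53 ± 0.09 and -0.78 ± 0.10) were decreased. These are levels of transcripts and not of pathway activity.

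Markers of other cell types moved between hydrogels and cores as well. Of all genes tested, 33.9% rose in WT assembloids and 25.5% in those labelled KO. All 12 cell cycle genes rose in WT assembloids (median 1.34) and 10 of 12 in those labelled KO (median 1.18). Skeletal muscle markers fell in 3 of 7 and 2 of 7 (medians -0.50 and -0.85). Endothelial markers rose in 1 of 3 and 0 of 3 (medians 0.65 and 0.36). Macrophage markers rose in 8 of 10 cases in WT assembloids (median 0.58) and in 0 of 10 in those labelled KO (median 0.58), tendon fibroblast markers fell in 7 of 11 and 4 of 11 (medians -1.07 and -0.60), where 35.4% and 30.2% of all genes fell, and Schwann cell markers rose in 3 of 3 in both (medians 2.49 and 2.52), where their summed share stayed at or below 0.00448% of the counts. The part of these differences in the change of the ribosomal protein genes was not tested.

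Ribosomal protein transcripts are short, with a median annotated length of 772.5 nt compared with 2330 nt for the other protein-coding genes, and the difference between hydrogel and core fell with transcript length across all genes. Other protein-coding genes with up to 600 nt had a median log2 fold change of 0.43 in WT assembloids and 0.62 in those labelled KO, and those over 4000 nt had -0.12 and -0.16. The 23 members with up to 600 nt had medians of 0.69 and 0.94, the 42 members of 600 to 1000 nt had 0.70 and 0.91, beside 0.35 and 0.47 for other genes, and the 14 members of 1000 to 2000 nt had 0.58 and 0.79, beside 0.18 and 0.23. The members were thus above the other genes in each of these classes, by less in the shortest. Pyrimidine runs did not separate them, with a median of 0.67 in WT assembloids both for the 27 members with a run of at least 8 and for the 36 tested members with a shorter run, and of 0.88 and 0.91 in those labelled KO.

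**Figure D4:**
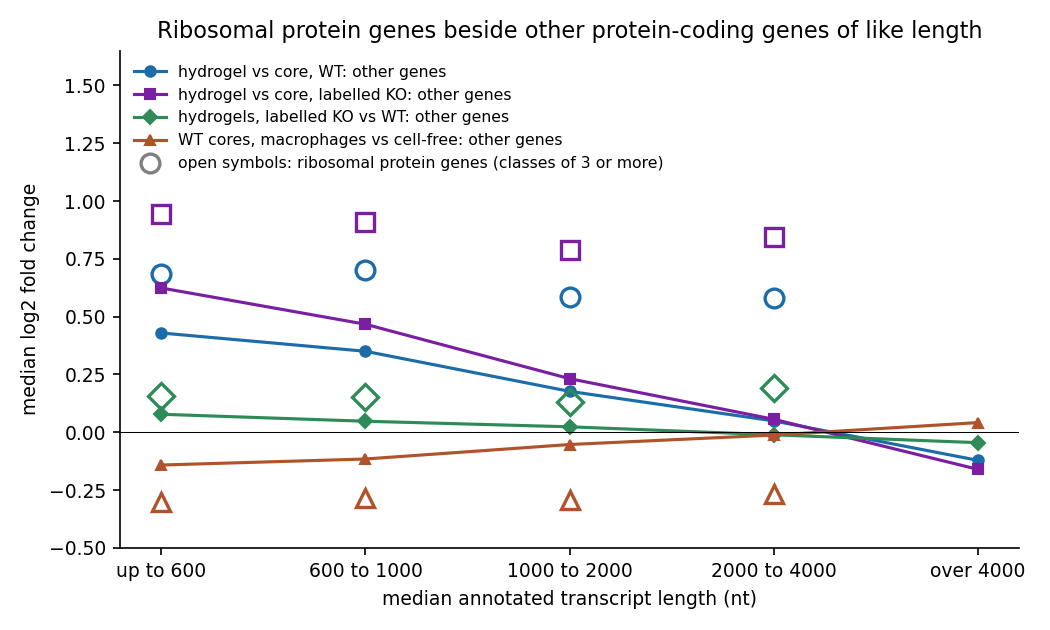
Median log2 fold change (vertical axis) by class of median annotated transcript length in nt (horizontal axis), for other protein-coding genes (filled symbols, lines) and for ribosomal protein genes in classes of at least 3 (open symbols), in 4 comparisons. Other genes up to 600 nt reach 0.43 and 0.62 in hydrogel against core, where the ribosomal protein genes reach 0.69 and 0.94.

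Within each of the 3 run codes, the log2 ratio of the summed share in hydrogels to that in cores was 0.72, 0.56 and 0.66 in WT assembloids and 0.74, 0.73 and 0.92 in those labelled KO. The difference thus had the same direction under every code, though what the codes stand for is not stated.

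Whether a core labelled KO changed the cells around it was asked by comparing the 2 groups of hydrogels. No member was called in either direction, where 0.0% of 15227 genes were called, and DESeq2 called none either. At an unadjusted p under 0.05 (edgeR), 19 of 83 members tested were higher around cores labelled KO and 0 lower, compared with 1.79% and 0.867% of all genes. The median log2 fold change of the members was 0.15, with 82 of 83 positive, where 47.4% of all genes were, compared with a median of -0.01 for all genes and 0.08 for other protein-coding genes of up to 600 nt. Rpl19, with 363, 370, 381, 370, 373 and 378 CPM around WT cores and 389, 393, 412, 414, 491 and 423 CPM around cores labelled KO, did not overlap between the groups (log2 fold change 0.18 ± 0.06, adjusted p = 0.9997, edgeR, exact permutation p = 0.0022, two-sided). Rpl14 and Rpl37a did not overlap either, and 0.0919% of all genes tested had every library of this group above the other. Rpl39l pointed the other way (-0.88 ± 0.52, adjusted p = 0.9997, edgeR). Replicate 5 around cores labelled KO stood apart from its group with a summed share of 3.24%, and it also had the lowest macrophage marker share (0.204%, where the other 5 had 1.05% to 2.55%) and the highest tendon fibroblast marker share (7.96%, where the others had 2.72% to 5.18%). Without it the median was 0.10, and the part of these markers in the difference was not tested. Within run codes 150, 152 and 154, the log2 ratio of the summed shares was 0.04, 0.13 and 0.27.

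The cores were compared to ask what fibroblasts, macrophages and the label KO do to the tendon tissue itself. In WT cores, fibroblasts in the hydrogel went with a median log2 fold change of -0.03 against cell-free hydrogels, and none of 83 members tested was called, where 4.29% of 16188 genes were. At an unadjusted p under 0.05 (edgeR), 0 members were higher and 0 lower, where 10.9% and 10.4% of all genes were, and DESeq2 called none. Without replicate 4 of the cell-free WT cores, which had the highest share of its group, the median was 0.13 and Rpl27 was called (0.40 ± 0.09, adjusted p = 0.0332, edgeR), and leaving out each library in turn gave -0.10 to 0.13.

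In WT cores beside macrophages, all 83 members tested had a negative log2 fold change against cell-free hydrogels, where 49.2% of all genes did, with a median of -0.29 compared with 0.01 for all genes. The same 4 cell-free libraries served as controls for the fibroblast comparison. None was called by edgeR, where 5.67% of 16441 genes were, while DESeq2 called Rpl39l lower. At an unadjusted p under 0.05 (edgeR), 6 members were lower and 0 higher, compared with 13.6% and 8.79% of all genes. Rps6 was at 113, 125, 115 and 157 CPM beside macrophages and at 133, 148, 137 and 177 CPM beside cell-free hydrogels. Each value was below that of the same replicate number, while the groups overlapped (log2 fold change -0.33 ± 0.17, adjusted p = 0.287, edgeR, exact permutation p = 0.143, two-sided). The replicate number was taken to pair these samples, and with it as a block Rps6 (-0.33 ± 0.08, adjusted p = 0.0438) and Rps26 (-0.36 ± 0.08, adjusted p = 0.0414) were called by edgeR. With the run code as a block, 9 members were lower, and without replicate 4 of the cores beside macrophages 3 were, Rpl23, Rpl35 and Rpl35a. The shares of all genes called in these alternative fits are not given here, so these counts cannot be set against a background. Without replicate 4 of the cell-free cores, the median was -0.12, and without replicate 1 of the cores beside macrophages it was -0.18. Other protein-coding genes of up to 600 nt had a median of -0.14 in this comparison. All 12 cell cycle genes were decreased beside macrophages (median -1.5), and 2 of 10 macrophage markers were decreased (median -0.69), with a summed macrophage marker share of 0.600% to 1.14% compared with 1.01% to 1.36% beside cell-free hydrogels. The part of these in the lower values was not tested.

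In cores labelled KO, fibroblasts went with a median of -0.24 against cell-free hydrogels, with 83 of 84 members tested negative (53.3% of all genes) and none called, where 0.432% of 15965 genes were. There were 2 members lower at an unadjusted p under 0.05 (edgeR), among them Rpl35 (-0.46 ± 0.15), and 0 higher, compared with 6.01% and 5.66% of all genes. Cell-free cores labelled KO had a median of 0.18 above the cell-free WT cores, with 81 of 83 positive (52.9% of all genes) and none called among them or among all 16065 genes (0.0%). At an unadjusted p under 0.05 (edgeR), 0 members were higher and 0 lower, compared with 1.18% and 0.927% of all genes. Both comparisons use the same cell-free cores labelled KO, and both values depended on replicate 1 of that group. Without it, the medians were -0.03 and -0.04. Without replicate 2 of the same group, they were -0.39 and 0.31, and the second was 0.33 without replicate 4 and 0.11 without replicate 3 of the cell-free WT cores. Rpsa had 730 CPM in that library and 461, 501 and 574 CPM in the others of its group. Cores beside fibroblasts did not separate by label, with a median of -0.05 between labelled KO and WT (-0.11 to -0.01 when each library was left out in turn) and no call among 83 members tested or among all 16088 genes (0.0%). At an unadjusted p under 0.05 (edgeR), 1 member was lower and 0 higher, compared with 4.23% and 4.64% of all genes. The difference that fibroblasts made between the genotypes had a median of -0.24 over 84 members in the interaction term, none called and 0.0% of all genes called. At an unadjusted p under 0.05 (edgeR), 0 members were higher and 0 lower, compared with 1.38% and 1.62% of all genes, and without the same replicate 1 the median was -0.00. It was -0.37 without replicate 2 of the cell-free cores labelled KO and -0.38 without replicate 4 of the cell-free WT cores. DESeq2 called no member in any of these 4 comparisons of cores labelled KO.

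**Figure D5:**
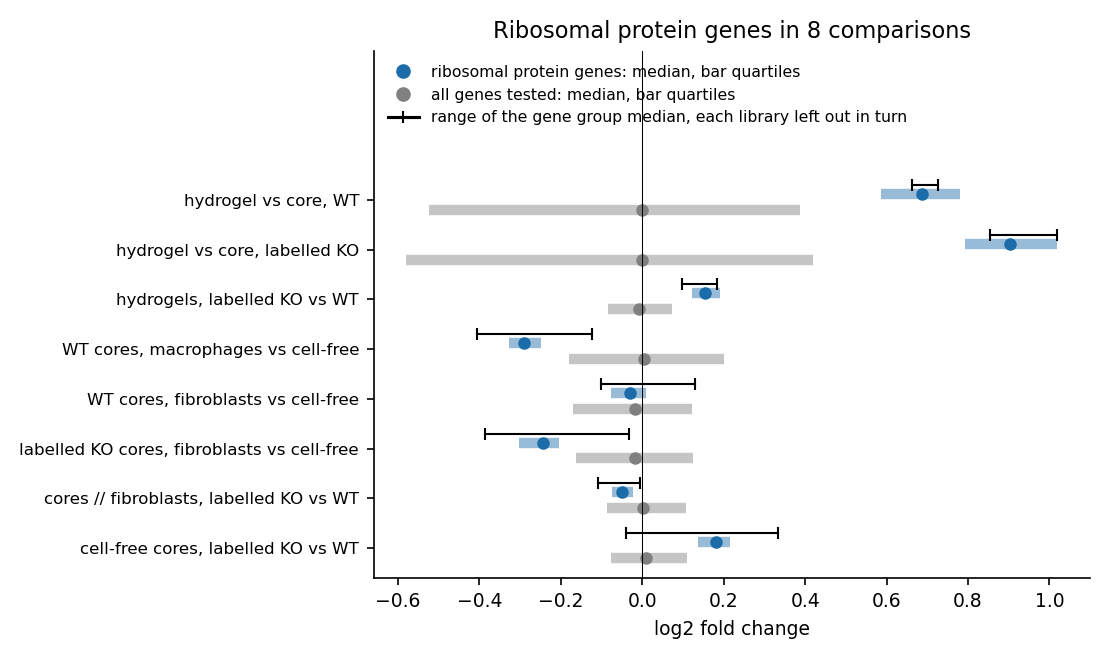
Median log2 fold change (horizontal axis) with quartiles of the ribosomal protein genes (blue) and of all genes tested (grey) in 8 comparisons, and the range of the gene group's median when each library is left out in turn (black). Only hydrogel against core (0.69 and 0.90) holds called members in the fits shown, and the ranges of 2 comparisons, WT fibroblasts and cell-free labelled KO, cross 0.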

How the data were processed

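For each of 32 bulk libraries from 7 groups, the authors deposited estimated counts per gene, made from ribosomal RNA-depleted, stranded total RNA with kallisto 0.46.1 in SUSHI. The submitters' processing notes name the build GRCm39, without an annotation release. Gene symbols were taken from GENCODE M21, which named 25664 of 25700 genes. Pseudogenes of the family held 16.5 of every 1000000 counts of the members. Members and gene lists were chosen with earlier results of these data known.

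Counts were rounded and, per comparison, filtered with filterByExpr, scaled with TMM factors and tested with edgeR 4.0.16 (quasi-likelihood test, R 4.3.3), with p adjusted over all genes tested (Benjamini-Hochberg, 0.05). Levels are CPM of library totals, shares are percent of the total, and log2 fold changes come from the fits, with the standard error after the ± sign. Exact permutation tests used log2 CPM with a prior count of 2. At 1 CPM, the shallowest library (20360289 counts) held 20.4 counts. Scripts were tested on simulated counts. Alternatives were DESeq2 1.42.0, other scalings and filters, replicate and run code blocks and leaving out each library.

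By rule, the text names in each comparison the up to 4 called members that rose and 4 that fell with the lowest p, the 3 members with the highest and the 3 with the lowest mean CPM, the paralogs with their parents, the stalk genes with Rps27a, Rpsa and Rps6, Fau, Rack1 and Il6, and up to 4 genes of lowest p in each list. Other genes were named after their values were seen. Samples from separate mice are biological replicates for cores. The hydrogels used a shared pool of fibroblasts, so that p-values there measure the spread between these cultures. Replicate numbers were taken to pair the samples where the deviations of same-numbered samples correlated above 0.1 in every pair. This held for hydrogels against each other (0.26 to 0.60), WT cores beside macrophages against cell-free (0.19 to 0.34), cores labelled KO beside fibroblasts against cell-free (0.21 to 0.39) and, by run and N code, hydrogels against cores (0.23 to 0.32 for WT, 0.23 to 0.42 for labelled KO). For replicates 2 and 6 of the hydrogels and replicate 1 of the cores beside macrophages, a sample with another number correlated more strongly. Protein sequences were not used here, and some genes are not reported here.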

Additional observations from a re-analysis of the deposited data

Results flagged for a closer look

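In 17 of 182 groups of 4 or 6 values, 1 sample stood farther from the others than Dixon's test allows at its 95% level. Chance alone marks about 1 group in 20, and the values of different genes in 1 library are not independent.

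Replicate 5 of the hydrogels around cores labelled KO held 9 of these. Its summed share was 3.24%, where the other 5 hydrogels had 2.27% to 2.59%. The genes concerned were Rpl4 (948 CPM), Rpl7 (656 CPM), Rpl3 (609 CPM), Rpl19 (491 CPM), Rps27a (365 CPM), Rps25 (244 CPM), Rpl27a (229 CPM) and Rpl36a (197 CPM), each the highest of its group.

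Replicate 5 of the hydrogels around WT cores was the highest for Rplp0 (1037 CPM), Rps21 (219 CPM) and Rpl27a (167 CPM). Replicate 4 around cores labelled KO was the highest for Rpl39l (6.89 CPM). Among cores labelled KO beside fibroblasts, replicate 1 was the lowest for Rpl22 (96.8 CPM) and the highest for Rpl22l1 (21.6 CPM). Replicate 4 was the highest for Rpl4 among WT cores beside cell-free hydrogels (702 CPM) and for Rpsa among WT cores beside macrophages (529 CPM).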

How the results depend on the processing

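Of 170 recomputed counts of called members, 164 stayed within 1.5 times the value reported. In every comparison except hydrogel against core the reported count was 0, where this limit only asks whether 0 stayed 0. All 6 counts that moved were in WT cores beside fibroblasts or macrophages against cell-free hydrogels. Hydrogel against core kept 79 to 83 called members in WT assembloids (82 when any 1 library was left out) and 81 to 83 in those labelled KO (81 to 83). The members named by rule gave 48 results with their comparisons. Of 863 alternatives, 856 kept direction and call, none reversed, and 7 lost the call, all Rpl39l in assembloids labelled KO. Part of these members were picked for the lowest p in the same fits, so that their kept calls are no independent check. Rpl34, outside this tally, was not called in 4 of 19 fits of assembloids labelled KO. For WT cores beside macrophages, members called lower were 1 with DESeq2 (Rpl39l), 2 with the replicate block and 9 with the run code block. There were 0 to 3 when 1 library was left out. At an unadjusted p under 0.05 and a log2 fold change beyond 0.5, 1 was lower. The study used these limits for its comparisons by genotype and an adjusted p for fibroblasts against cell-free hydrogels. Fibroblasts against cell-free in WT cores gave 0 to 1 when 1 library was left out. The shares of all genes called in these alternative fits are not given here, and the cause of these calls was not tested. Besides these, the replicate block changed only the call of Rpl34 in WT assembloids. With library totals alone, the median of all genes was -0.12 in WT cores beside fibroblasts and 0.12 in those beside macrophages, where the members' medians were -0.13 and -0.18. In WT cores with fibroblasts against cell-free, same-numbered samples correlated at 0.42, 0.25, 0.07 and 0.08, so that the limit of 0.1 was not met in every pair. It was not met in either comparison of cores by label, with lowest values of -0.18 beside fibroblasts and -0.001 in cell-free cores. Missing this limit does not show that the samples were unpaired. The block called 0 members in these comparisons. With effective library sizes, the summed share was 2.53% in WT hydrogels and 1.22% in WT cores beside macrophages, instead of 2.30% and 1.44%. Leaving out libraries for the summed share, and the interaction at the limits named above, were added after seeing the data. Depth limits Rpl10l and Rps27rt, which were not tested, Rpl3l, which was tested only in cores labelled KO with fibroblasts against cell-free and in the interaction, and Rpl39l, with as few as 4 counts in a library.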
